A study of Mus musculus with 6 samples.

Results

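Aminoacyl-tRNA synthetases are the enzymes that join each amino acid to its own tRNA before protein synthesis. The 36 synthetase genes described here were found by their symbols among the 24411 genes in the 6 files, and all 36 passed the filter on low counts, as did 12953 genes in all. Of the 36, 18 encode enzymes of the cytosol, 16 encode enzymes that are imported into mitochondria, and 2 (Gars for glycine and Kars for lysine) give rise to enzymes of both compartments. The question was whether deletion of Brd9, whose bromodomain protein belongs to a SWI/SNF chromatin remodelling complex (non-canonical BAF), was accompanied by changed expression of these genes, and whether cytosolic and mitochondrial enzymes differed.

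Cells use separate synthetases in the cytosol and in mitochondria because mitochondria translate their own mRNAs with their own tRNAs. Several cytosolic synthetases sit in a multi-synthetase complex held together by scaffold proteins. A subset of cytosolic synthetase genes is induced by ATF4, the transcription factor of the amino acid response, when uncharged tRNA accumulates or the unfolded protein response is active. Hematopoietic stem cells are known for a low rate of protein synthesis, which increases in the progenitors they give rise to.

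RNA-seq was compared between 3 Brd9 KO libraries (Mx1-Cre Brd9fl/fl) and 3 control libraries (Brd9fl/fl) of mouse bone marrow cells. All mice were C57BL/6, carried CD45.2(+) and the floxed Brd9 alleles, and were given 3 doses of pIpC at 20 mg/kg, with cells taken 8 weeks after the injections. The series design starts the injections 4 weeks after birth, the labels start them 4 weeks after a bone marrow transplant, and the text of the study gives an age of 4 months at analysis. pIpC is a double-stranded RNA mimic that switches on Mx1-Cre through interferon, so deletion is not limited to hematopoietic cells. Only the Brd9 KO mice carried Cre, and what Cre does by itself cannot be told apart from what the loss of Brd9 does. The sources disagree on the material, with lineage-negative marrow and transplant recipients in the labels, primary mice in the series design, and primary mice with sorting for Lin-c-Kit+ in the methods. Since these are bulk samples, fewer cells of a type and less RNA per cell cannot be told apart.

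Expected read counts per library summed to 21151031 to 25526248 in Brd9 KO and 23915415 to 28500168 in control. Brd9 itself (chr13:73937811-73960895, plus strand, mm10) was at 15.6, 13.5 and 21.03 CPM (read counts relative to the library total, with TMM scaling between libraries) in Brd9 KO, against 45.9, 49.1 and 52.1 CPM in control. All Brd9 KO libraries lay below all control libraries, with a log2 fold change of -1.56 ± 0.17 (SE) and an adjusted p of 0.00345 by edgeR, and the exact two-sided permutation test gave p = 0.1, the smallest that 3 against 3 allows. Kit and Cd34, markers of the cells named in the methods, were present in every library, at 178 to 269 CPM and 277 to 407 CPM. Of 7 progenitor markers, Mpo was lower (log2 fold change -0.98, adjusted p = 0.00574 by edgeR), Gata2 (1.27, adjusted p = 0.00369) and Ptprc (0.47, adjusted p = 0.0527) were higher, and their sum, most of it Mpo, was 7022 to 7252 CPM in Brd9 KO and 10960 to 12298 CPM in control. Some markers of other cells moved with the group. The markers of lineages that the sort removes summed to 369.5 to 485 CPM in Brd9 KO and 275 to 358 CPM in control, with 3 of 9 genes higher (Itgam, Cd4 and Ptprc) and 0 lower. A large part of this sum was Ptprc (202 to 234 CPM in Brd9 KO and 139 to 176 CPM in control). Ptprc also stands among the 7 progenitor markers, so the sum does not mark removed lineages alone. Summed over its markers, stroma was at 150.2 to 205 CPM in Brd9 KO and 96.3 to 135 CPM in control (10 of 13 tested genes higher, 1 lower), eosinophils at 3821 to 7447 CPM in Brd9 KO and 1775 to 2337 CPM in control (6 of 7 higher, 1 lower), and erythroid cells at 1983 to 2864 CPM in Brd9 KO and 3150 to 3694 CPM in control (7 of 14 lower, 0 higher). The stroma sums stood apart through Cxcl12 (54.4 to 78.4 CPM in Brd9 KO and 8.65 to 14.1 CPM in control), and without it they overlap. Most of the eosinophil sum was Prg2 (3355 to 6729 CPM in Brd9 KO and 1375 to 1931 CPM in control), while Epx was the lower gene (log2 fold change -1.54). The macrophage sums overlapped (100.7 to 149.6 CPM in Brd9 KO and 92.8 to 135 CPM in control, 5 of 9 genes higher, 1 lower), as did the endothelial sums (265 to 310 CPM in Brd9 KO and 231 to 265 CPM in control, 5 of 10 higher), and Brd9 KO replicate 3 stood apart in neutrophil genes (7911 CPM, against 1274 to 3226 CPM in the other libraries). None of these markers was at 0 in all libraries. Their part in the synthetase results was not tested.

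Cytosolic synthetase transcripts were more abundant than mitochondrial ones. Per length, in TPM (transcript abundance relative to all transcripts of a library), the 18 cytosolic genes had a median of 57.6 TPM over all libraries and the 16 mitochondrial genes a median of 15.6 TPM, against 14.6 TPM over all genes tested. Together, the cytosolic genes summed to 1375, 1442 and 993 TPM in Brd9 KO, against 1068, 1557 and 1207 TPM in control, so the groups overlapped. The mitochondrial genes summed to 330.0, 346 and 237 TPM in Brd9 KO, against 276, 349 and 296 TPM in control, which overlapped too. In both compartments Brd9 KO replicate 3 was the lowest library and control replicate 2 the highest.

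The most abundant transcript of the family was that of Kars, the lysyl-tRNA synthetase of both compartments, at 167, 168 and 109 TPM in Brd9 KO and 143, 182 and 146.5 TPM in control. Nars, which charges asparagine tRNA, was at 139, 147 and 103 TPM in Brd9 KO and 113, 173 and 123 TPM in control. Vars, which charges valine tRNA, was at 134, 142 and 93.9 TPM in Brd9 KO and 99.6, 129 and 114 TPM in control. All 3 genes thus overlapped between groups per length. The least abundant cytosolic genes were Cars (cysteine), with 26.6, 29.6 and 20.1 TPM in Brd9 KO and 19.4, 34.7 and 24.0 TPM in control, and Iars (isoleucine), with 39.5, 48.7 and 20.8 TPM in Brd9 KO and 21.2, 45.5 and 30.02 TPM in control. Among mitochondrial genes, Tars2 (threonine) led with 46.0, 45.5 and 33.8 TPM in Brd9 KO and 43.4, 51.4 and 40.5 TPM in control, and Iars2 (isoleucine) followed with 44.8, 55.1 and 23.6 TPM in Brd9 KO and 29.5, 46.7 and 39.0 TPM in control. Per length both of those genes overlapped between groups, while on read counts, given below, Tars2 did not. At the low end stood Wars2 (tryptophan), with 3.38, 4.10 and 2.26 TPM in Brd9 KO and 1.90, 2.83 and 2.89 TPM in control, and Ears2 (glutamate), with 3.46, 3.12 and 2.85 TPM in Brd9 KO and 3.36, 3.51 and 3.33 TPM in control.

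Between the groups, 35 of the 36 synthetase genes were below 0 on TMM-scaled counts, whereas on log2(TPM + 1) 16 of the 36 were below 0 and 34 were below the all-gene median. On TMM-scaled counts, these 35 genes had a log2 fold change below 0, where 48.2% of all genes tested did, and Wars2 was the exception. The median log2 fold change was -0.20 over the 36 genes, a level 13.0% lower than in control, and 0.02 over all genes tested. It was -0.21 for the cytosolic genes, -0.19 for the mitochondrial genes and -0.26 for Gars and Kars, so the compartments differed by 0.02 on the log2 scale. Without control replicate 2 the medians were -0.10 (cytosolic) and -0.16 (mitochondrial) with 32 of 36 genes below 0, and without Brd9 KO replicate 3 they were -0.16 and -0.13 with 30 of 36 below 0. Single genes rarely passed the test. At an adjusted p under 0.1 by edgeR, over all genes tested, 3 of 36 were lower (8.33%, against 6.25% of all genes) and 0 were higher (9.19% of all genes). The lower genes were Hars, Rars and Yars2, which are 2 of 18 cytosolic and 1 of 16 mitochondrial genes. At an unadjusted p under 0.05, 9 genes were lower and 0 higher, against 12.6% (lower) and 14.8% (higher) of all genes.

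**Figure D1:**
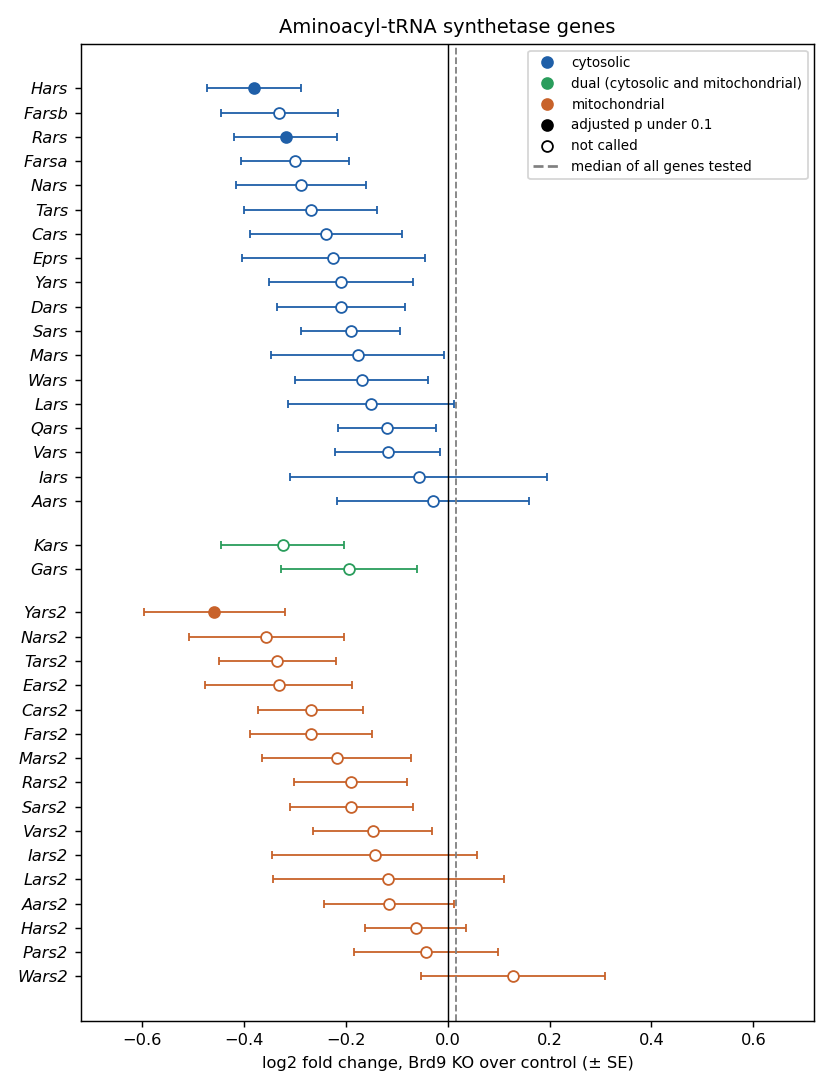
Log2 fold change of each synthetase gene, Brd9 KO over control, with its standard error from edgeR (TMM-scaled counts, 3 libraries a group), sorted within compartment. Filled points passed an adjusted p of 0.1 (Hars, Rars and Yars2), and all points but that of Wars2 lie left of 0, while the dashed line marks the median of all genes tested at 0.02.

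The distance from 0 changed with the scaling. Of the genes called in each fit (1999 with TMM scaling), 59.5% were higher in Brd9 KO with TMM scaling, 74.1% with library totals alone, and 83.3% and 84.0% on log2(TPM + 1) and log2(TPM + 0.1). On library totals, the all-gene median was 0.10 and 31 of the 36 synthetase genes were below 0. On log2(TPM + 1), the all-gene median was 0.18, and the synthetase genes had medians of 0.01 (cytosolic) and 0.03 (mitochondrial). Measured from the all-gene median, those TPM values were -0.17 and -0.15. None of the 36 genes was called on library totals or on either TPM scale. By DESeq2, 7 were called (Farsa, Farsb, Hars, Kars, Rars, Tars2 and Yars2, all lower), where 7.42% of all genes were lower.

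Hars, the cytosolic histidyl-tRNA synthetase, had the smallest p of the family. It was at 127, 119.9 and 125 CPM in Brd9 KO, against 156, 170.4 and 157 CPM in control. The Brd9 KO libraries were close together and all below the control libraries. The log2 fold change was -0.38 ± 0.09 (SE), or 0.768-fold, with an adjusted p of 0.0477 by edgeR. Hars lies head to head with its mitochondrial counterpart Hars2, and their annotated exons overlap by 195 bases on opposite strands. Hars2 was at 40.7, 38.1 and 39.2 CPM in Brd9 KO, against 44.7, 39.8 and 38.8 CPM in control, which overlap, with a log2 fold change of -0.06 (95% interval -0.29 to 0.17). The labels call the libraries unstranded while the methods name a stranded kit, which leaves the strand of reads from the shared bases uncertain. Both genes had whole expected counts in every library, so the counts show no read divided between them. Whether such reads were assigned to the right gene was not tested.

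Rars (chr11:35808381-35834506, minus strand, mm10), a member of the multi-synthetase complex that charges arginine tRNA, was at 114, 105 and 103 CPM in Brd9 KO, against 136, 142 and 123 CPM in control. Its groups did not overlap, and it fell by 0.32 on the log2 scale (SE 0.10, adjusted p = 0.0962 by edgeR). Its mitochondrial counterpart Rars2 had 39.6, 33.7 and 34.9 CPM in Brd9 KO and 39.8, 44.9 and 38.8 CPM in control, and the log2 fold change of -0.19 did not pass (adjusted p = 0.301 by edgeR). Yars2 (chr16:16302965-16309640, plus strand, mm10), the mitochondrial tyrosyl-tRNA synthetase, had the lowest log2 fold change of the family. It was at 34.8, 31.1 and 25.9 CPM in Brd9 KO, against 43.8, 45.2 and 37.1 CPM in control. All Brd9 KO libraries were below all control libraries, and the log2 fold change was -0.46 ± 0.14 (SE, adjusted p = 0.0867 by edgeR). Its cytosolic counterpart Yars overlapped between groups, with 87.4, 77.5 and 88.3 CPM in Brd9 KO and 89.4, 117.6 and 85.7 CPM in control. None of the 3 genes was called without Brd9 KO replicate 1 or 2 or control replicate 2 or 3, only Hars was called without control replicate 1, and all 3 were called without Brd9 KO replicate 3. Over all alternatives they had adjusted p-values of up to 0.529 (Hars), 0.716 (Rars) and 0.508 (Yars2) by edgeR, DESeq2 or limma, while the sign stayed negative in each of the 18 alternatives when values were taken from the all-gene median wherever that had shifted by over 0.1.

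**Figure D2:**
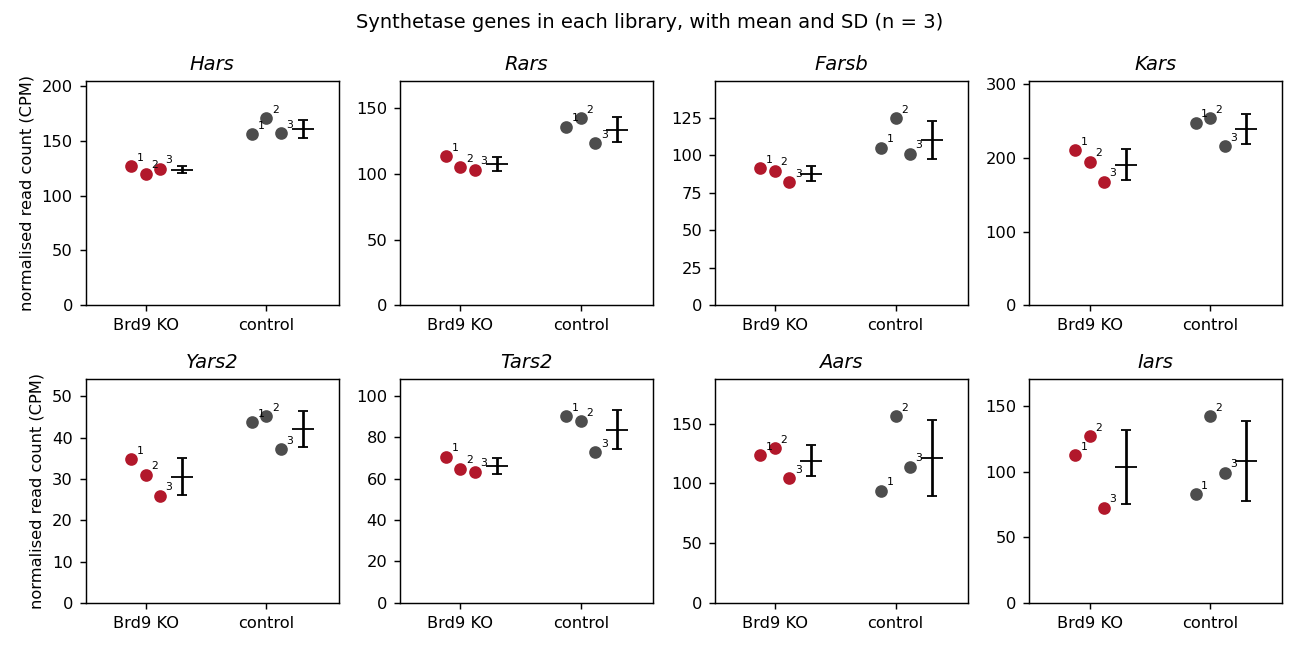
Normalised read count (CPM) of 8 synthetase genes in each library, labelled by replicate number, Brd9 KO left of control, with mean and SD (n = 3) at the right of each group. Hars, Rars, Farsb, Kars, Yars2 and Tars2 do not overlap between groups, whereas Aars and Iars do, with control replicate 2 the highest and the other controls near the Brd9 KO libraries.

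In 13 of the 36 genes (36.1%) all Brd9 KO libraries lay below all control libraries, as did 16.3% of all genes tested, and in none did they lie above. Beside the 3 called genes these were the cytosolic Farsa, Farsb, Nars and Sars, the dual Kars, and the mitochondrial Tars2, Cars2, Nars2, Ears2 and Fars2. Farsa and Farsb encode the catalytic and the other subunit of the cytosolic phenylalanyl-tRNA synthetase, which is built from both. Farsa was at 134, 125 and 134 CPM in Brd9 KO, against 167, 172 and 144 CPM in control, and Farsb was at 91.3, 89.6 and 81.8 CPM in Brd9 KO, against 105, 124 and 101 CPM in control. Their log2 fold changes were alike, at -0.30 ± 0.11 and -0.33 ± 0.11 (SE), with adjusted p-values of 0.121 and 0.115 by edgeR.

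Kars was at 210.4, 195 and 168 CPM in Brd9 KO, against 248, 254 and 216 CPM in control. The gap between the groups was small beside their ranges, and its log2 fold change of -0.32 ± 0.12 (SE) did not pass (adjusted p = 0.136 by edgeR). Among mitochondrial genes, Tars2 was at 70.7, 64.8 and 63.3 CPM in Brd9 KO and 90.2, 87.6 and 72.8 CPM in control, with a log2 fold change of -0.33 ± 0.11 (SE, adjusted p = 0.112 by edgeR). Cars2 (cysteine), Nars2 (asparagine), Ears2 (glutamate) and Fars2 (phenylalanine) had log2 fold changes of -0.27, -0.36, -0.33 and -0.27. The adjusted p-values of these 4 genes were 0.142 to 0.192 by edgeR.

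The smallest differences were those of Aars, Pars2, Iars and Hars2. Aars, the alanyl-tRNA synthetase of the cytosol, was at 124, 129 and 104 CPM in Brd9 KO, against 93.9, 156 and 114 CPM in control, with a log2 fold change of -0.03 (95% interval -0.46 to 0.41). Control replicates 1 and 2 bracket every Brd9 KO value. Pars2 (mitochondrial proline) was at 10.8, 11.2 and 9.31 CPM in Brd9 KO, against 10.6, 10.8 and 10.7 CPM in control, with an interval of -0.37 to 0.28. Wars2, the only gene above 0, had 9.62, 10.7 and 7.91 CPM in Brd9 KO and 7.42, 8.86 and 9.57 CPM in control, and its log2 fold change was 0.13 (95% interval -0.29 to 0.55). A change of the size seen in Hars therefore lies within the interval of Aars but not within that of Wars2 or Pars2.

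The values were also grouped by complex and by enzyme class, with no test of the differences. The 8 genes of the multi-synthetase complex (Dars, Eprs, Iars, Kars, Lars, Mars, Qars and Rars) had a median log2 fold change of -0.19. The other 12 cytosolic or dual genes had a median of -0.22. Of the 8 genes 1 was called lower (12.5%), and of the 12 genes 1 (8.33%), against 6.25% of all genes. The 17 genes of class II enzymes had a median of -0.27, and the 18 genes of class I enzymes, whose active site has the Rossmann fold, had a median of -0.17 (Eprs, a fusion of both classes, was left out). Their median effective lengths were 2188 and 2765 bases, and with the length correction described later the medians were -0.27 (class II) and -0.28 (class I).

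Libraries of the same group differed more in the ATF4-responsive genes than in the other cytosolic ones. The 12 ATF4-responsive members, all cytosolic or dual, had a median SD of 0.20 (log2 CPM) between libraries of the same group, against 0.10 for the 8 other cytosolic or dual genes and 0.20 over all genes tested. In control replicate 2 each of the 12 was the highest of the 3 controls, while that library was the highest control for 34.3% of all genes tested. It was also the highest control for all 8 other cytosolic or dual genes and for 10 of 16 mitochondrial genes, but there by less. From the control mean of each gene, the median deviation in that library was 0.28 for the ATF4-responsive genes, 0.09 for the others and 0.07 for the mitochondrial genes. Brd9 KO replicate 3 was the lowest Brd9 KO library for 10 of the 12 genes, for 6 of the 8 others, for 10 of 16 mitochondrial genes and for 43.8% of all genes tested.

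**Figure D3:**
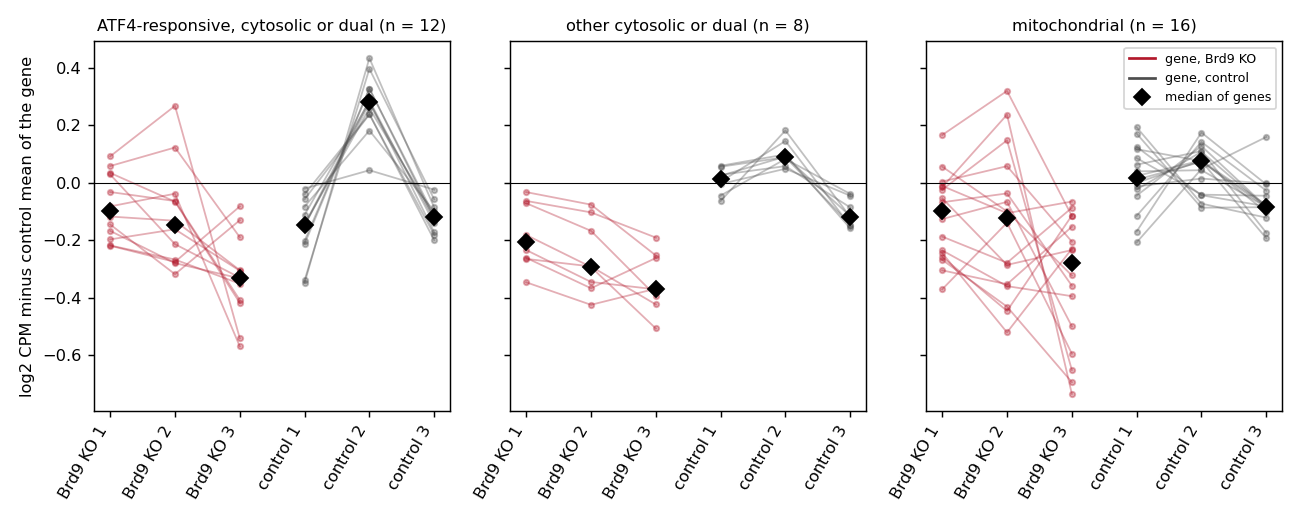
Log2 CPM of each synthetase gene minus its control mean in each library, Brd9 KO left of control, for 12 ATF4-responsive genes, 8 other cytosolic or dual genes and 16 mitochondrial genes, where each line is a gene and diamonds are medians. The ATF4-responsive genes peak in control replicate 2 (median 0.28), and the other cytosolic or dual genes sit lower in every Brd9 KO library (medians -0.21, -0.29 and -0.37) than in any control library (0.01, 0.09 and -0.12).

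Of the 12 ATF4-responsive genes 0 were called by edgeR or by DESeq2, none had an unadjusted p under 0.05, and their median log2 fold change was -0.19. Of the 8 other cytosolic or dual genes, 2 were called (25.0%), against 6.25% of all genes, 5 had an unadjusted p under 0.05 and were lower, against 12.6% of all genes, and the median was -0.31. The difference between these medians was not tested. Median effective lengths were 2765 bases (ATF4-responsive) and 1978 bases (the others), and with the length correction the medians were -0.29 and -0.30. In that fit 4 of the 12 and 5 of the 8 genes were lower, against 16.4% of all genes. Iars, a member of the complex, had the largest SD within groups of the family (0.41), with 113, 127 and 72.6 CPM in Brd9 KO and 83.0, 143 and 99.6 CPM in control, and its log2 fold change was -0.06 (95% interval -0.64 to 0.52). Next came 2 mitochondrial genes. Lars2 (leucine) was at 27.9, 33.3 and 17.0 CPM in Brd9 KO and 26.1, 31.2 and 27.7 CPM in control, and Iars2 was at 101.6, 114 and 65.8 CPM in Brd9 KO and 91.9, 117 and 103 CPM in control. In all 3 genes Brd9 KO replicate 3 was the lowest of the 6 libraries, and without it their log2 fold changes were 0.14 (Iars), 0.11 (Lars2) and 0.06 (Iars2).

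The promoter windows of the members were searched for TGATGNAA, the core of the C/EBP-ATF response element that ATF4 binds. Windows from 250 bases before to 50 bases after the start site were found for 27 of the 36 genes in RefSeq (GRCm38.p6), and both strands were searched. A match was found in 5 of the 27, all of them among the 8 ATF4-responsive genes with a window, and in 0 of the 19 other windows, while 3.97% of all 32851 promoter windows held one. The stretch from 50 bases before to 30 bases after the start site is shown for those 5 genes, with the match in capitals, and for Yars2, which was called and has none. Matches on the opposite strand read TTNCATCA here, and a second match of Aars, at position -112 from the start site, lies outside the stretch.
Aars, chr8:111033792-111033871, plus strand: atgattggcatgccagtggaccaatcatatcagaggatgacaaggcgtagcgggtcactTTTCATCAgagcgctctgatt
Gars, chr6:55037951-55038030, plus strand: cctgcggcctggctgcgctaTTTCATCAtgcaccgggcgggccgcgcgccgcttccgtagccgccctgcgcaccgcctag
Iars, chr13:49682080-49682159, plus strand: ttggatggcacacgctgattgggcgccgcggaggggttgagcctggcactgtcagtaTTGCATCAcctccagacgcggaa
Tars, chr15:11399629-11399708, minus strand: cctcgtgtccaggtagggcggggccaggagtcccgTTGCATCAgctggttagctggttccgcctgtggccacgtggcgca
Yars, chr4:129189853-129189932, plus strand: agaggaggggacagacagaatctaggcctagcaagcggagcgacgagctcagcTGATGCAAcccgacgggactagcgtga
Yars2, chr16:16302915-16302994, plus strand: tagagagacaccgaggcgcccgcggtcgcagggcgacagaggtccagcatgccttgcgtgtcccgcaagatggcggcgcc
The 5 matches shown lie between positions -30 and 10 from the start site. A search for CACGTG, the E-box that MYC and MAX bind, found it in 5 of the 27 windows (Aars, Ears2, Farsb, Iars and Tars), against 7.15% of all windows. A match is a run of letters and was not tested for binding. The ATF4-responsive set is a textbook assignment, and whether that assignment drew on such sites was not tested.

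None of the 5 genes with a match was called by edgeR without the length correction, and with it Tars was lower (adjusted p = 0.0954). In control replicate 2 their values of 156 (Aars), 210.2 (Gars), 143 (Iars), 136 (Tars) and 117.6 CPM (Yars) were higher than in every other library, Brd9 KO included. Gars was at 162, 160.3 and 142 CPM in Brd9 KO, against 159, 210.2 and 162 CPM in control. Tars was at 102.7, 95.02 and 91.6 CPM in Brd9 KO, against 112, 136 and 100.4 CPM in control.

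Of 24 ATF4 targets other than synthetases, 23 were tested, 2 were lower (8.70%, against 6.25% of all genes) and 0 higher (9.19% of all genes), and the median log2 fold change was -0.06. With the length correction 6 were lower (16.4% of all genes) and 1, Ddit4, was higher (9.72% of all genes). Without the length correction, the 2 lower genes were Asns, which makes asparagine, and Psph, which completes serine synthesis. Asns was at 61.0, 67.4 and 64.2 CPM in Brd9 KO, against 102.3, 116 and 104 CPM in control, without overlap, and its log2 fold change of -0.74 ± 0.10 (SE, adjusted p = 0.00714 by edgeR) was larger than that of any synthetase gene. Psph was at 23.9, 20.95 and 24.9 CPM in Brd9 KO, against 34.2, 33.9 and 26.2 CPM in control (log2 fold change -0.43, adjusted p = 0.0974). Of 9 genes that sense or relay amino acid stress, 1 was lower (11.1%, against 6.25% of all genes) and none was higher, with a median of 0.05. It was Ppp1r15a, the stress-induced regulatory subunit of the phosphatase for eIF2 alpha (log2 fold change -0.50, adjusted p = 0.0730 by edgeR). With the length correction 3 of these 9 genes were lower (33.3%, against 16.4% of all genes).

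To compare the compartments gene by gene, the cytosolic gene was paired with the mitochondrial gene for the same amino acid, which gave 17 pairs over 16 amino acids. Eprs stands in 2 pairs (with Ears2 and Pars2), as does Fars2 (with Farsa and Farsb). The cytosolic transcript was the more abundant per length in 15 of 17 pairs, with a median ratio of 4.28 and ratios of up to 24.0 (Nars over Nars2), and the exceptions were Iars/Iars2 (0.847) and Cars/Cars2 (0.898). The log2 ratio in Brd9 KO minus that in control had a median of 0.05 and ran over -0.32 to 0.27, and was above 0 in 12 pairs and below 0 in 5. In 15 pairs the groups overlapped.

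The exceptions were Hars/Hars2 and Rars/Rars2. The log2 ratio of Hars over Hars2 was 2.33, 2.35 and 2.36 in Brd9 KO, against 2.49, 2.78 and 2.71 in control, a mean difference of -0.32. That of Rars over Rars2 was 1.31, 1.43 and 1.35 in Brd9 KO, against 1.56, 1.45 and 1.46 in control, a mean difference of -0.13. Both gave p = 0.1 in the exact two-sided permutation test, the smallest that 3 against 3 allows, and 0.85 after Benjamini-Hochberg adjustment over the 17 pairs. With 3 libraries a group, no pair could have passed a p of 0.05 in this test.

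**Figure D4:**
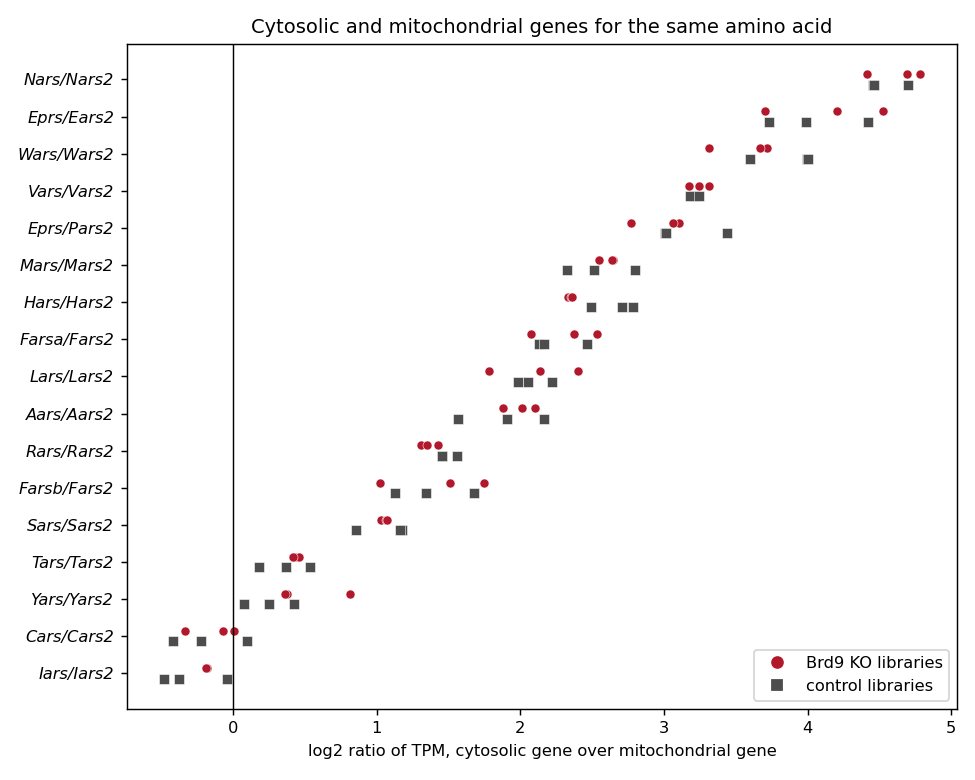
Log2 ratio of TPM of the cytosolic gene over the mitochondrial gene for the same amino acid in each library, for 17 pairs sorted by their mean, with Brd9 KO circles above control squares. The circles and squares interleave in 15 pairs, and in Hars/Hars2 and Rars/Rars2 all circles lie left of all squares.

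Transcript length moved with the libraries. The mean effective length, weighted by TPM, was 1420, 1490 and 1223 bases in Brd9 KO, against 1156, 1347 and 1274 bases in control. Across all genes, the Spearman correlation of a gene's deviation in a library with its length was 0.43, 0.61 and -0.28 in Brd9 KO and -0.60, 0.08 and -0.19 in control, so long transcripts were over-represented in Brd9 KO replicates 1 and 2 and under-represented in control replicate 1. Over the 36 synthetase genes it was 0.46, 0.63 and -0.31 in Brd9 KO and -0.52, 0.06 and -0.11 in control. The log2 fold change of the 36 genes correlated with length at 0.46, against 0.38 over all genes, as a description over genes that share the same libraries.

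In a fit that removed this trend from each library, chosen after seeing the data, all 36 genes were below 0, and the medians were -0.29 (cytosolic), -0.26 (mitochondrial) and -0.06 (all genes). There 15 of 36 genes were lower (41.7%, against 16.4% of all genes) and 0 higher, with 9 of 18 cytosolic, 0 of 2 dual and 6 of 16 mitochondrial genes among them, and of all calls 37.2% were higher in Brd9 KO. Hars (adjusted p = 0.0257 by edgeR) and Rars (adjusted p = 0.0462) were called in this fit too, while Yars2 was not (adjusted p = 0.135). The long transcripts of Vars and Eprs were among those called only after the correction. Vars, with 367, 356 and 315 CPM in Brd9 KO against 374, 388 and 364 CPM in control, had a log2 fold change of -0.12 as counted and -0.29 after it (adjusted p = 0.484 and 0.0467 by edgeR). Eprs, the fused synthetase for glutamate and proline, had -0.22 as counted and -0.44 after it (adjusted p = 0.444 and 0.047). The part of transcript length in the uncorrected values was not tested further.

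**Figure D5:**
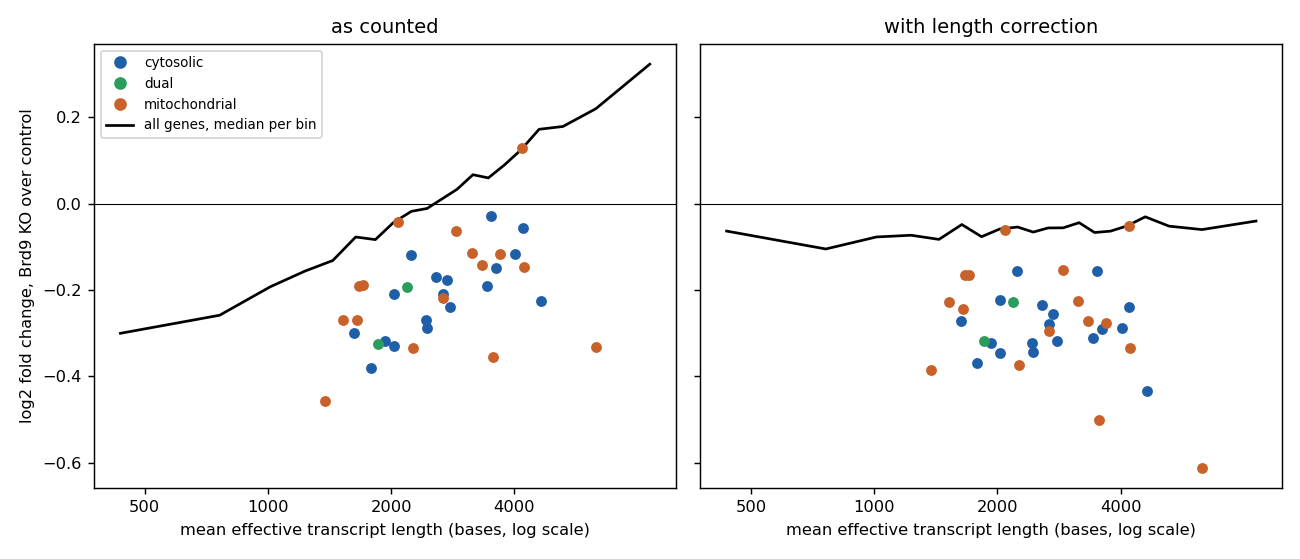
Log2 fold change, Brd9 KO over control, against the mean effective transcript length of each gene (bases, log scale), as counted (left) and after a per-library length correction (right), with synthetase genes as points by compartment and the median of all genes tested in equal-sized length bins as a line. The line climbs with length as counted and lies flat near the all-gene median of -0.06 after correction, and nearly all synthetase points lie below it in both panels.

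Some partners of the synthetases were also lower. The 8 cytosolic partners scaffold the multi-synthetase complex, serve the delivery of charged tRNA to the ribosome or, in the case of Xpot, export tRNA from the nucleus. Of these 8 genes, 3 were lower (37.5%, against 6.25% of all genes) and 0 higher. Their median log2 fold change was -0.38, with all 8 below 0. With the length correction 5 were lower, against 16.4% of all genes, but Eef1e1 (adjusted p = 0.114 by edgeR) and Aimp2 (adjusted p = 0.237) were no longer called. Eef1e1, the small scaffold protein of the complex, was at 46.2, 39.1 and 43.9 CPM in Brd9 KO, against 61.0, 60.1 and 56.1 CPM in control, without overlap (log2 fold change -0.46, adjusted p = 0.0373 by edgeR). Aimp2, another scaffold, was at 33.7, 30.5 and 32.1 CPM in Brd9 KO, against 42.7, 42.3 and 37.9 CPM in control (-0.35, adjusted p = 0.0752), and Eef1d, a subunit of the exchange factor for eEF1A, was at 237, 212 and 272 CPM in Brd9 KO, against 350.3, 322 and 287 CPM in control (-0.41, adjusted p = 0.0937). None of the 3 genes overlapped between groups.

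Of 14 tested mitochondrial partners, 3 were lower (21.4%, against 6.25% of all genes) and 0 higher, with a median of -0.23. They were Gatc and Gatb, subunits of the amidotransferase that completes mitochondrial glutaminyl-tRNA, for which no mitochondrial synthetase is used, and Mtif2, the mitochondrial initiation factor. Gatc was at 22.7, 23.7 and 24.2 CPM in Brd9 KO, against 34.5, 28.3 and 30.1 CPM in control, and Mtif2 at 46.1, 44.0 and 44.0 CPM in Brd9 KO, against 54.6, 53.5 and 54.0 CPM in control. Their log2 fold changes were -0.40, -0.27 and, for Gatb, -0.37, with adjusted p-values of 0.0733, 0.0938 and 0.0955 by edgeR. Qars, the cytosolic glutaminyl-tRNA synthetase, was at 148, 144 and 135 CPM in Brd9 KO, against 157, 161 and 146 CPM in control, and was not called (log2 fold change -0.12, 95% interval -0.34 to 0.10).

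Of 10 genes of charging quality control, which act on wrongly charged or stalled tRNA or serve selenocysteine tRNA, 4 were lower (6.25% of all genes) and 0 higher, with a median log2 fold change of -0.40. Dtd1 and Dtd2 clear D-amino acids or misplaced glycine and alanine from tRNA, and Aarsd1 edits mischarged alanine tRNA. Dtd1 was at 26.6, 24.6 and 23.0 CPM in Brd9 KO, against 37.5, 33.5 and 32.1 CPM in control (log2 fold change -0.47, adjusted p = 0.0437 by edgeR). Aarsd1 and Dtd2 had log2 fold changes of -0.51 and -0.54. Tarsl2, a second threonyl-tRNA synthetase, which is not among the 36, had -0.31 and was not called (adjusted p = 0.225 by edgeR).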

How the data were processed

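Poly(A) RNA-seq of 3 Brd9 KO and 3 control libraries was analysed. As the methods state, reads were mapped to mm10 by an nf-core pipeline with STAR and RSEM. The deposited files hold the expected count of each gene, an estimated count for which the authors ran RSEM, which divides reads shared between transcripts. They also hold the TPM that RSEM computed for the authors and the effective length in bases. All 36 synthetase genes had whole expected counts in every library.

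Expected counts were rounded, filtered with filterByExpr, scaled by TMM (factors 0.927 to 1.08) and compared with edgeR 4.0.16 in R 4.3.3 (quasi-likelihood test, no covariate, Benjamini-Hochberg over all genes tested, threshold 0.1, the study's). CPM are TMM-scaled, and SE was taken as the size of the log2 fold change over the root of F. The hypothesis weighting that the study added to DESeq2 was not used. DESeq2 1.42.0 without it, limma 3.58.1, other scalings, filters and thresholds, a replicate block and leaving out each library were alternatives. Length correction (a loess of log2 CPM deviation on log2 effective length per library, used as an offset) and median-centred TPM were added after seeing the data.

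The members and lists were chosen with earlier results of these data known. The genes given library by library are the called members, the 2 most and 2 least abundant of each compartment, those whose libraries of a group stood furthest apart and, from each partner list, called genes with the smallest p, and further members were given beside them as examples. Compartment, class, complex membership and ATF4 response are textbook assignments. Gene positions are from GENCODE vM21 and promoters from RefSeq (GRCm38.p6), both of the build of the files. Pet112, an older name of Gatb, was not matched. Some genes of the lists are not reported here by name. The labels do not say that replicates came from separate animals (the methods state biological triplicates), and if they did not, p-values cover the spread of these libraries alone, which may be technical. Same-group libraries differed by a chi-square per degree of freedom of 10.6 to 80.2, so none was counted as a copy. The fit was tested on simulated data. No explanation was tested.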

Additional observations from a re-analysis of the deposited data

How the results depend on the processing

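The number of synthetase genes called, 3 of 36, was 3 with RLE scaling, limma-voom and a robust fit, 2 without the filter on low counts, 4 on median-centred TPM, 7 with DESeq2, 15 with length correction, 1 at an adjusted p under 0.05, and 0 on library totals, log2(TPM + 1) and log2(TPM + 0.1). Leaving out each library gave 0 to 6 (6 when Brd9 KO replicate 3 was left out, 1 without control replicate 1, and 0 for any other), with fewer libraries in the fit. The 1999 calls over all genes became 1015 at an adjusted p under 0.05, 3383 with length correction and 641 to 4150 on leaving out each library (4150 when Brd9 KO replicate 3 was left out, 1010 or fewer otherwise). With median-centred TPM 43.0% of all calls were higher. Of all genes in each fit, 6.25% were called lower in the main fit, 7.42% with DESeq2 and 6.85% on median-centred TPM. The share was 16.4% with length correction and 15.3% without Brd9 KO replicate 3. The medians of both compartments stayed below 0 in every alternative when taken from the all-gene median, and on leaving out each library the cytosolic median was -0.29 to -0.10 (-0.10 without control replicate 2) and the mitochondrial median -0.24 to -0.13. The cytosolic minus mitochondrial difference in median was 0.06 without control replicate 2 and below 0 in every other setting. The median difference of the 17 pair ratios was -0.048 to 0.17 on leaving out each library (-0.048 without control replicate 1, 0.17 without control replicate 2). Of the single genes not called, Aars was above 0 on log2(TPM + 1) from the all-gene median (0.025). Wars2 was below 0 with length correction (-0.051), though above the all-gene median of that fit (-0.061). Leaving out each library gave ranges that crossed 0 for Aars (-0.19 to 0.19), Hars2 (-0.11 to 0.00045), Iars (-0.23 to 0.19), Iars2 (-0.31 to 0.057), Lars2 (-0.34 to 0.11), Mars (-0.28 to 0.0014) and Pars2 (-0.099 to 0.030), and the upper end came on leaving out Brd9 KO replicate 3 (Iars2, Lars2, Pars2), control replicate 2 (Aars, Iars, Mars) or control replicate 1 (Hars2). Their causes were not tested. Between Brd9 KO and control libraries of the same replicate number, the correlations of deviations were -0.08, 0.42 and 0.02. They were not compared with those of libraries of different numbers, so whether the numbers pair the libraries was not settled. A replicate block gave 2077 calls over all genes and 2 synthetase genes (Hars and Yars2). Members had 164 to 9892 reads per library, so depth limits the least abundant of them most (Wars2 and Pars2).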

Other observations

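Interferon response genes, which include the targets of the interferon that pIpC raises, had 3 of 16 members lower in Brd9 KO (18.8%, against 6.25% of all genes) and 0 higher, with a median log2 fold change of -0.30. Oasl1, an OAS-like protein, was at 2.62, 2.47 and 2.36 CPM in Brd9 KO, against 9.27, 9.49 and 11.3 CPM in control, without overlap (log2 fold change -2.01, adjusted p = 0.00192 by edgeR). Oas1a (-0.53) and Isg15 (-0.84) were the other genes called. Wars, a synthetase gene that is also known to respond to interferon gamma, was at 78.1, 66.0 and 60.9 CPM in Brd9 KO, against 72.3, 86.8 and 71.5 CPM in control, and was not called (log2 fold change -0.17, adjusted p = 0.431 by edgeR).

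RSEM's effective length, which moves with the mix of transcript forms of a gene, varied most between libraries for Fars2, at 1599, 1688 and 1435 bases in Brd9 KO, against 1377, 1539 and 1493 bases in control. For Qars it was 2298, 2296 and 2149 bases in Brd9 KO, against 2132, 2298 and 2242 bases in control. In both genes the groups overlapped.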
